A study of Mus musculus with 35 samples.

Results

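The 10 genes that carry, relay and restrain interferon (IFN) signals named here were followed through myeloid-derived suppressor cells (MDSC) of mice with pancreatic tumors: the receptor subunit genes Ifnar1, Ifnar2, Ifngr1 and Ifngr2, the Janus kinase genes Jak1, Jak2 and Tyk2, and Socs1, Socs2 and Socs3 of the family of suppressors of cytokine signaling. The genes were taken by symbol from the table of raw read counts, and all 10 of 10 were found among its 53379 gene identifiers. The rule itself used symbols alone.

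All mice were female C57BL/6 animals carrying orthotopic tumors grown from T110299, a single cell line from a mouse pancreatic carcinoma that carried p53 fl/R172H and Ptf1a-Cre, the last of which acts in cells of the pancreas. Treated mice received 50 µg of poly(I:C)c, a complex of the double-stranded RNA poly(I:C) with polyethylenimine (PEI), into a vein on day 18 and again on day 20, and the controls are labelled untreated, while the labels' protocol names glucose as the control. CD11b+ cells were enriched on magnetic columns and sorted into PMN-MDSC (Ly6C low, Ly6G+) and M-MDSC (Ly6C high, Ly6G-), from spleen and from tumor. Pieces of untreated tumor were also lysed without sorting. Total RNA depleted of ribosomal RNA was sequenced. The 34 libraries used comprised spleen PMN-MDSC from untreated (n = 4) and treated mice (n = 3), tumor PMN-MDSC (4 and 4), spleen M-MDSC (4 and 4), tumor M-MDSC (4 and 3) and bulk tumor of untreated mice (4). Another library of treated tumor M-MDSC held 10 counts in all and was left out.

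Type I interferons bind a receptor built from IFNAR1 and IFNAR2, whose cytoplasmic tails hold the kinases TYK2 and JAK1. IFN-gamma binds IFNGR1 and IFNGR2, which use JAK1 and JAK2. The activated kinases phosphorylate STAT proteins, which enter the nucleus and switch on target genes, Socs1 and Socs3 among them, and the SOCS proteins then bind kinases or receptors and shut the pathway down. In myeloid cells the same kinases also serve the receptors for G-CSF, GM-CSF and IL-6. SOCS3 is the main brake on signaling by gp130 and by the G-CSF receptor, and SOCS2 is best known as a brake on growth hormone signaling.

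Short DNA elements link these pathways to their targets. The GAS core, TTCNNNGAA, is bound by STAT dimers, and the ISRE core was searched as GAAANNGAAA, the repeated letters recognised by a complex that holds STAT2 and IRF9. RefSeq promoter windows (GRCm38.p6, 250 bases before to 50 bases after a start site) were at hand for 9 of the 10 genes, and both strands were searched. The GAS core occurred in 3 of 9 windows (Ifnar1, Ifnar2 and Socs3) and the ISRE core in 1 of 9 (Socs1), against 8.30% and 3.44% of all 32851 windows of the same length. The windows of Ifngr1, Ifngr2, Jak1, Jak2 and Tyk2 held neither set of letters. The 250 bases before the start site are shown for Socs1 and Ifnar2, whose match lies before the start of the annotated gene, 5′ to 3′ on the strand of the gene, with the match in capitals.

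Socs1, minus strand, chr16:10785537-10785786: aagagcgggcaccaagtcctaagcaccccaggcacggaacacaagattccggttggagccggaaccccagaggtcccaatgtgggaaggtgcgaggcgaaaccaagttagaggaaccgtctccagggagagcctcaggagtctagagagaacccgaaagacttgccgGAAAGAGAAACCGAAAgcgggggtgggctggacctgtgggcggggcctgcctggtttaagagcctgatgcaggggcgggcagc

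Ifnar2, plus strand, chr16:91372533-91372782: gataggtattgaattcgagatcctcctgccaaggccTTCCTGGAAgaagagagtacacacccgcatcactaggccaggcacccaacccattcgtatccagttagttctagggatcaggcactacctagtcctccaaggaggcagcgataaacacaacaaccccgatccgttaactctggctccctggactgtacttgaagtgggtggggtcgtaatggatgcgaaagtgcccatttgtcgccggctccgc

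In Socs1 a pair of overlapping matches, GAAAGAGAAA and GAAACCGAAA, began 83 and 77 bases before the start site. The Ifnar2 match began 214 bases before it. The Socs3 match, TTCTTAGAA, began 154 bases before the RefSeq start site and inside the longer span that the Ensembl annotation gives the gene, while the Ifnar1 match TTCACGGAA straddled the start site. A match is a description of these letters only.

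Sorted libraries held 793070 to 4357105 counts and bulk tumor 3771590 to 8886115. Levels are given as normalised read counts (CPM, counts scaled to a common library size) with 1 set of normalisation factors (TMM) over the 34 libraries, and levels of different genes were compared only per kilobase of exon (FPKM). Fold changes come from edgeR fits of each comparison, and a gene was called at an adjusted p under 0.05 over all genes tested. The sorted cells were not free of other transcripts: the 7 macrophage genes Adgre1, C1qa, C1qb, C1qc, Mrc1, Apoe and Mertk summed to 10069.5 to 13106 CPM in untreated tumor PMN-MDSC and 3405 to 7946 CPM in untreated tumor M-MDSC, against 513 to 1500.2 and 669 to 896 CPM in the matching spleen groups. Ly6g, the antigen used to sort PMN-MDSC, lay at 0 to 8.98 CPM in untreated tumor PMN-MDSC and 37.5 to 101 CPM in untreated spleen PMN-MDSC, whereas Cxcr2, a neutrophil chemokine receptor, lay at 87.4 to 311 CPM in untreated tumor PMN-MDSC and 0 to 5.91 CPM in untreated tumor M-MDSC. No ligand gene of a fixed list of 10 (Ifnb1, 4 Ifna genes, Ifng, Ifnl2, Ifnl3, Ifnk and Ifne) passed the filter of 25 counts on average in any comparison, and Ifnb1 had at most 9 counts in a library.

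**Figure D1:**
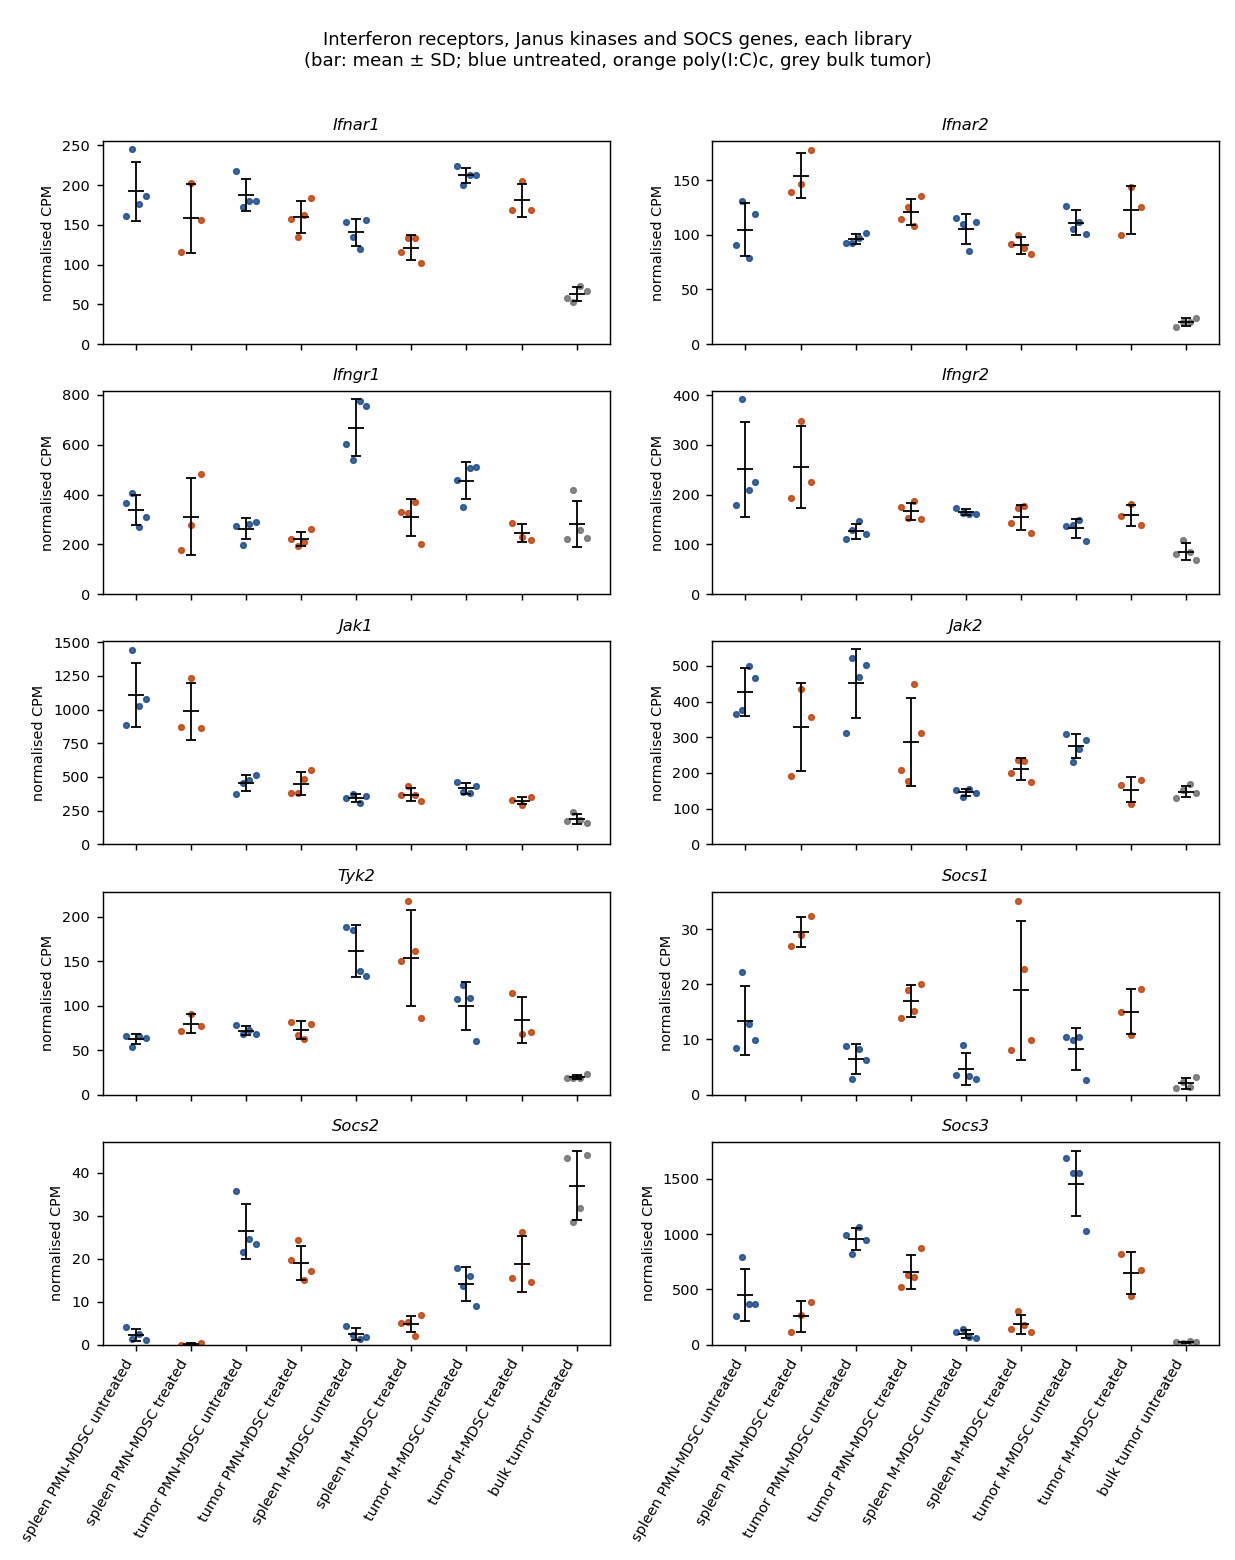
Normalised CPM (y axis, from 0, a separate scale for each gene) of the 10 genes in each of the 34 libraries, by group (x axis), with blue for untreated, orange for treated and grey for bulk tumor, and mean ± SD in black. Among the sorted groups Socs3 ranged from a mean of 96.6 in untreated spleen M-MDSC to 1453 in untreated tumor M-MDSC, whereas group means of Ifnar1 and Ifnar2 differed by at most 1.75-fold and 1.71-fold; the lowest Socs3 mean, 22.6, was that of bulk tumor.

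Transcripts for both chains of the type I receptor were present in every library. Per length, Ifnar1 lay below Ifnar2 in every treated library, and in 3 of the 4 sorted populations the ratio of the chains was lower in all treated than in all untreated libraries. Ifnar1 (ENSMUSG00000022967.12, chr16:91485238-91507441 on the plus strand of GRCm38) had a mean of 192 ± 37.3 CPM (SD, n = 4) in untreated spleen PMN-MDSC and 158 ± 43.7 (n = 3) in treated ones. In tumor PMN-MDSC it stood at 187 ± 20.5 without and 159.6 ± 20.1 with treatment. The M-MDSC means were 141 ± 17.1 and 121 ± 15.7 in spleen and 213 ± 9.35 and 181 ± 20.9 in tumor. The treated mean was the lower one in all 4 populations, but no difference was called: log2 fold changes ran from -0.26 to -0.23, with adjusted p from 0.209 to 0.526.

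Ifnar2 (ENSMUSG00000022971.18, chr16:91372783-91405589, plus strand) encodes the chain that binds type I interferon most tightly. In spleen PMN-MDSC the untreated libraries had 90.5, 131, 78.5 and 119 CPM and the treated ones 139, 146 and 178. All 3 treated libraries lay above the 4 untreated ones, yet the difference missed the threshold (log2 fold change 0.62 ± 0.21 SE, adjusted p = 0.0902); DESeq2 and a fit over all sorted groups called it (adjusted p = 0.0453 and 0.00876). In tumor PMN-MDSC untreated values of 92.7, 92.5, 97.2 and 102 lay below treated values of 114, 125, 108 and 135, without a call (log2 fold change 0.30 ± 0.14 SE, adjusted p = 0.279). In M-MDSC the groups overlapped in both organs, at -0.26 ± 0.13 (adjusted p = 0.183) in spleen and 0.14 ± 0.19 (adjusted p = 0.748) in tumor on the log2 scale. An annotated gene, Gm21970, overlaps Ifnar2 on the same strand and had 0 counts in every library.

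The ratio of Ifnar1 to Ifnar2 FPKM within a library does not depend on the scaling. It was 0.994, 1.05, 1.26 and 0.871 in untreated spleen PMN-MDSC and 0.466, 0.778 and 0.490 in treated ones. In tumor PMN-MDSC it ranged over 0.992 to 1.32 without and 0.603 to 0.839 with treatment, and in tumor M-MDSC over 0.989 to 1.18 without and 0.757 to 0.944 with treatment. Treated and untreated ranges did not overlap in these 3 populations. In spleen M-MDSC they did, with means of 0.749 ± 0.0483 and 0.751 ± 0.0748 (SD). Bulk tumor had the highest ratio, 1.44 to 2.16. These ratios were looked at after the levels had been seen and were not tested.

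Of the IFN-gamma receptor, the ligand-binding chain was called as lower after treatment in spleen M-MDSC, and the signal-transducing chain was called in none of the 4 populations. Ifngr1 (ENSMUSG00000020009.12, chr10:19591949-19610229, plus strand) had 605, 539.7, 774 and 756 CPM in the untreated spleen M-MDSC and 332, 327, 372 and 201 in the treated ones. Every treated library lay below every untreated one, and Ifngr1 was called as lower (log2 fold change -1.17 ± 0.20 SE, adjusted p = 0.00329). The call held without any single library, with adjusted p of at most 0.0164 over the alternatives that kept the threshold of 0.05. In tumor M-MDSC untreated libraries had 459, 348, 506 and 511 CPM and treated ones 287, 232 and 219, again without overlap, but the difference missed the threshold (log2 fold change -0.90 ± 0.21 SE, adjusted p = 0.0559). It was called by DESeq2 (adjusted p = 0.000991), without the filter on low counts, in the fit over all sorted groups and when the first treated tumor library was left out (adjusted p = 0.0471).

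In PMN-MDSC Ifngr1 was not called. Its log2 fold changes were -0.07 ± 0.32 (adjusted p = 0.916) in spleen, where the treated libraries spread from 177 to 481 CPM around untreated values of 272 to 407, and -0.27 ± 0.17 (adjusted p = 0.45) in tumor. Ifngr2 (ENSMUSG00000022965.7, chr16:91547072-91565623, plus strand) encodes the signal-transducing chain. None of its 4 treatment differences was called: the log2 fold changes were 0.08 ± 0.28 (adjusted p = 0.882) in spleen PMN-MDSC, 0.37 ± 0.15 (adjusted p = 0.223) in tumor PMN-MDSC, -0.14 ± 0.13 (adjusted p = 0.478) in spleen M-MDSC and 0.25 ± 0.18 (adjusted p = 0.514) in tumor M-MDSC. In tumor PMN-MDSC the untreated libraries had 110.3 to 146 CPM and the treated ones 151 to 188, without overlap.

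Per length Ifngr1 exceeded Ifngr2 in every library. In untreated spleen M-MDSC the ratio was 4.598, 4.36, 6.39 and 6.21, and in treated ones 3.07, 2.49, 2.79 and 2.14. In tumor M-MDSC it ranged over 3.33 to 6.38 without and 1.69 to 2.43 with treatment, and in neither organ did the groups overlap. The PMN-MDSC ratios were lower to begin with, 1.37 to 2.702 in untreated spleen and 2.04 to 3.301 in untreated tumor, and overlapped with the treated ones, at 1.05 to 2.82 and 1.49 to 2.29. Like the type I receptor ratios, they were not tested.

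**Figure D2:**
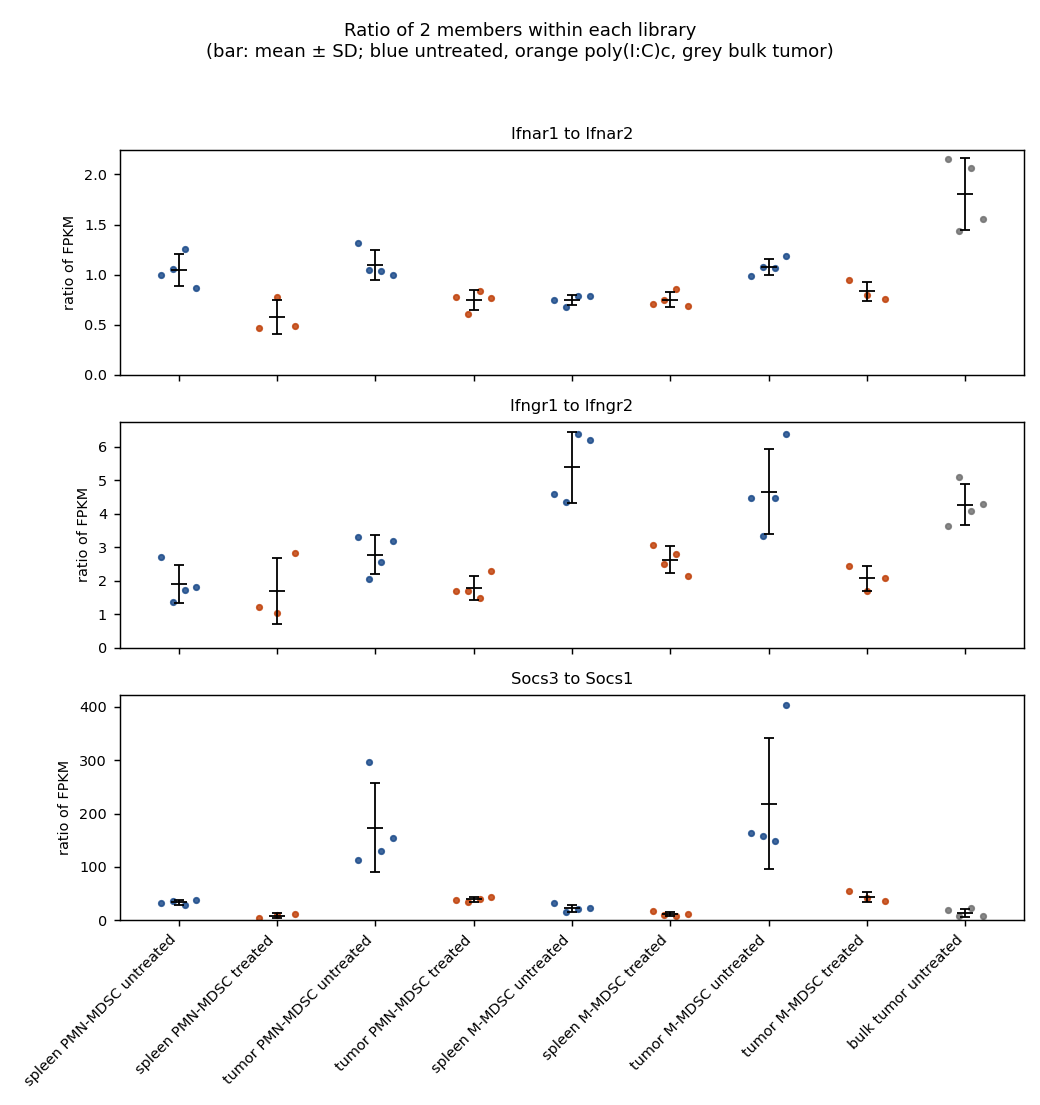
Ratio of FPKM (y axis, from 0) of Ifnar1 to Ifnar2, Ifngr1 to Ifngr2 and Socs3 to Socs1 within each library, by group (x axis), blue for untreated, orange for treated and grey for bulk tumor, with mean ± SD. The mean Ifngr1 to Ifngr2 ratio of M-MDSC was 5.39 in spleen and 4.66 in tumor without treatment, and 2.62 and 2.06 with treatment.

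Among the kinases, Jak2 was called as higher after treatment in spleen M-MDSC, was lower without a call in tumor M-MDSC, and responded differently in the 2 organs when that difference was tested. Jak2 (ENSMUSG00000024789.12, chr19:29251828-29313080, plus strand) serves the receptors for IFN-gamma and for GM-CSF. Its untreated level in spleen M-MDSC was 151, 132, 156 and 143 CPM, and the treated libraries had 201, 237, 234 and 174. All treated libraries were higher and Jak2 was called (log2 fold change 0.49 ± 0.12 SE, adjusted p = 0.0209), although the call was lost in the fit over all sorted groups (adjusted p = 0.216) and without untreated library 1 or 4 or treated library 3 (adjusted p = 0.0516, 0.0632 and 0.0531). In tumor M-MDSC untreated libraries had 309.7, 231, 268 and 294 CPM and treated ones 166, 113 and 179.7. Here all treated libraries were lower, with a difference just short of the threshold (log2 fold change -0.86 ± 0.22 SE, adjusted p = 0.0657). It was called by DESeq2, without the filter on low counts and in the fit over all sorted groups (adjusted p = 0.00568, 0.0189 and 0.0418).

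The difference between these 2 responses was tested as the treatment effect in tumor minus that in spleen. For Jak2 in M-MDSC it was -1.35 ± 0.23 (SE) on the log2 scale with adjusted p = 0.0243, and Jak2 was 1 of 10 members called, against 0.790% of all genes tested. Leaving out tumor untreated library 1, spleen untreated library 3 or 4 or spleen treated library 3 took the adjusted p to 0.0583, 0.0531, 0.058 and 0.0605, with the log2 difference between -1.49 and -1.17 over all alternatives. In PMN-MDSC the same test gave -0.31 ± 0.42 (adjusted p = 0.792). Jak2 there was lower after treatment on average in both organs, at -0.35 ± 0.27 (adjusted p = 0.449) in spleen and -0.68 ± 0.28 (adjusted p = 0.232) in tumor, with overlapping groups.

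Jak1 and Tyk2 were not called in any treatment comparison. Jak1 (ENSMUSG00000028530.14, chr4:101152367-101265282, minus strand) serves both interferon receptors, and its log2 fold changes were -0.11 ± 0.21 (adjusted p = 0.775) in spleen PMN-MDSC, -0.05 ± 0.18 (adjusted p = 0.921) in tumor PMN-MDSC, 0.06 ± 0.13 (adjusted p = 0.787) in spleen M-MDSC and -0.37 ± 0.18 (adjusted p = 0.299) in tumor M-MDSC. In tumor M-MDSC, all 3 treated libraries (326, 296 and 348 CPM) lay below the untreated ones (459, 387, 378 and 434 CPM). Tyk2 (ENSMUSG00000032175.11, chr9:21104068-21131243, minus strand), the kinase bound to IFNAR1, gave 0.39 ± 0.19 (adjusted p = 0.214), -0.01 ± 0.16 (adjusted p = 0.984), -0.11 ± 0.25 (adjusted p = 0.791) and -0.27 ± 0.28 (adjusted p = 0.653) in the same order. The treated spleen PMN-MDSC (71.3 to 91.1 CPM) lay above the untreated ones (53.9 to 65.99 CPM), and the groups overlapped in the other populations.

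The 3 SOCS genes behaved differently from one another. Socs1 had a higher mean after treatment in all 4 populations, Socs3 had a lower mean in 3 of them and a higher one in spleen M-MDSC, and Socs2 had its highest levels in bulk tumor and in cells sorted from tumor. Socs1 (ENSMUSG00000038037.4, chr16:10782240-10785536, minus strand), which blocks JAK1, JAK2 and TYK2 directly, was thinly covered, with 2 to 132 counts in a sorted library. In spleen PMN-MDSC it went from 8.36, 22.3, 12.9 and 9.96 CPM to 26.96, 28.996 and 32.3. All treated libraries were higher, and Socs1 was called (log2 fold change 1.24 ± 0.33 SE, adjusted p = 0.0464). The call was lost without any 1 of the libraries other than untreated library 2 (adjusted p from 0.0623 to 0.147) and with scaling to library totals (0.96 with adjusted p = 0.0733). In these libraries the macrophage genes, 7 of 7 called as lower, summed to 513 to 1500.2 CPM before and 96.4 to 245 CPM after treatment, and their part in the result was not tested.

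In spleen M-MDSC Socs1 rose from 3.497, 9.03, 3.39 and 2.82 CPM to 8.06, 35.1, 22.7 and 9.84. The groups overlapped through 1 untreated and 1 treated library, and Socs1 was called (log2 fold change 2.01 ± 0.55 SE, adjusted p = 0.0299). The untreated libraries held 56 counts together and the treated ones 257, so that Socs1 entered this test only through the treated libraries. The call did not survive the loss of untreated library 1, 3 or 4 or of treated library 2 or 3 (adjusted p from 0.0577 to 0.0923), nor the fit without a filter on low counts (adjusted p = 0.121). In tumor PMN-MDSC untreated values of 8.802, 2.77, 8.198 and 6.22 CPM stood against treated values of 13.9, 18.9, 15.2 and 20.01, with no overlap, and the test fell just short (log2 fold change 1.34 ± 0.33 SE, adjusted p = 0.0524; DESeq2 adjusted p = 0.00424, and 0.00724 without the filter). The untreated tumor PMN-MDSC libraries held 54 counts together and the treated ones 189, so that Socs1 again passed the filter only through the treated libraries. In tumor M-MDSC the values were 10.3, 9.84, 10.5 and 2.55 CPM and 15.03, 10.9 and 19.1. These groups did not overlap either, but the difference was not called (log2 fold change 0.74 ± 0.40 SE, adjusted p = 0.354). The same limit holds for them, with 76 counts in the untreated and 146 in the treated libraries.

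Socs3 (ENSMUSG00000053113.3, chr11:117966079-117970047, minus strand) was by far the most abundant of the 3, with 130 to 5907 counts in a sorted library. Untreated tumor M-MDSC had 1689, 1551, 1548 and 1023 CPM and treated ones 818, 443 and 672. All treated libraries lay below the untreated ones, with a difference close to the threshold (log2 fold change -1.19 ± 0.28 SE, adjusted p = 0.0561). DESeq2 called it (adjusted p = 0.000846), as did the fit without a filter and the fit without treated library 1 (adjusted p = 0.0393). In tumor PMN-MDSC untreated libraries had 991, 817, 1063 and 950.3 CPM and treated ones 518, 629, 612 and 874. The groups touched at 1 library and were not called apart (log2 fold change -0.57 ± 0.20 SE, adjusted p = 0.164), except by DESeq2 and without treated library 4 (adjusted p = 0.0483 and 0.0495).

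In spleen the Socs3 libraries were scattered. PMN-MDSC had 261, 796, 367 and 371 CPM without and 113, 266 and 388 with treatment (log2 fold change -0.74 ± 0.45 SE, adjusted p = 0.329). M-MDSC had 111, 145, 67.4 and 63.1 CPM without and 139, 305, 177 and 116 with treatment (log2 fold change 0.89 ± 0.35 SE, adjusted p = 0.109). The direction was thus down on average in PMN-MDSC and up in M-MDSC, with overlap in both, and DESeq2 called the M-MDSC difference (adjusted p = 0.0437). The treatment effect on Socs3 in M-MDSC differed between tumor and spleen by -2.07 ± 0.48 on the log2 scale, which missed the threshold (adjusted p = 0.0555) and was called by DESeq2 (adjusted p = 0.0015), without the filter, and without tumor treated library 1 or spleen treated library 4 (adjusted p = 0.0345 and 0.0409).

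The mean ratio of Socs3 to Socs1 was lower with treatment in all 4 sorted populations. Per length, Socs3 exceeded Socs1 by 149 to 403 times in untreated tumor M-MDSC and by 35.4 to 54.7 times in treated ones. In tumor PMN-MDSC the ratio ranged over 113 to 297 without and 33.5 to 43.9 with treatment, and in spleen PMN-MDSC over 28.7 to 37.5 without and 4.22 to 12.1 with treatment. These ranges did not overlap. In spleen M-MDSC the ranges of 16.2 to 31.8 and 7.85 to 17.3 overlapped. The ratios were not tested, and the highest of them rest on 2 and 5 counts of Socs1.

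Socs2 (ENSMUSG00000020027.18, chr10:95385362-95417180, minus strand) had 0 to 14 counts in the PMN-MDSC and 4 to 20 counts in the M-MDSC libraries from spleen and was too low there for a test of treatment. The 3 treated spleen PMN-MDSC libraries held 1 count together and the 4 untreated ones 25, a ratio of 12.1 per normalised count, untreated to treated, with an exact 95% interval of 1.98 to 497 that covers counting error only. In tumor the treatment differences were not called, at -0.48 ± 0.24 (adjusted p = 0.332) in PMN-MDSC and 0.37 ± 0.33 (adjusted p = 0.595) in M-MDSC.

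**Figure D3:**
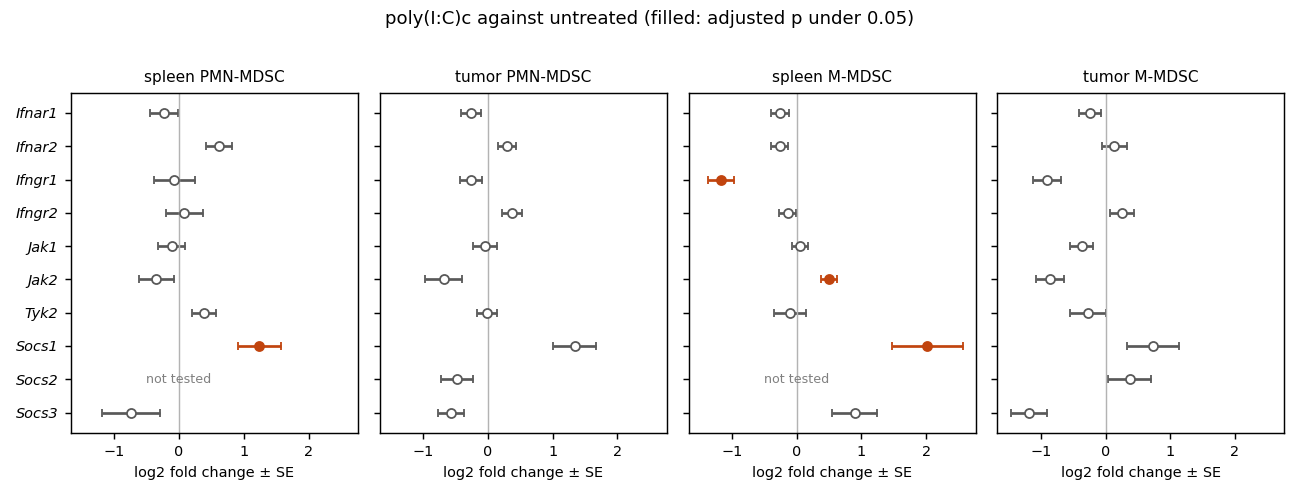
Log2 fold change of treated against untreated libraries (x axis, bars ± SE) for the 10 genes (y axis) in the 4 sorted populations, with filled orange points for an adjusted p under 0.05 and open points for the rest. Filled points are Socs1 in spleen PMN-MDSC and Ifngr1, Jak2 and Socs1 in spleen M-MDSC, and Socs2 was not tested in the spleen groups.

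Counted over the genes, treatment called 1 of 9 members tested in spleen PMN-MDSC, against 11.6% of all genes tested there, and 3 of 9 in spleen M-MDSC, Socs1 included, against 19.4%. No member was called by edgeR in tumor PMN-MDSC (0 of 10, against 3.36% of all genes) or in tumor M-MDSC (0 of 10, against 2.88%). At an unadjusted p under 0.05 there were 4 and 3 members, where all genes had 1508 of 8308 and 1606 of 8360, and DESeq2 called 2 and 3 members and 613 and 797 of all genes. The median log2 fold change of the members tested was -0.07, -0.15, -0.11 and -0.26 in spleen PMN-MDSC, tumor PMN-MDSC, spleen M-MDSC and tumor M-MDSC, where the median of all genes was 0.01, 0.01, -0.03 and 0.00. At the thresholds of the study's methods, adjusted p under 0.001 and at least 2-fold, edgeR called 0 members in each of the 4 comparisons, against 0.0413%, 0.241%, 2.49% and 0.0120% of all genes. The study applied these thresholds to DESeq2, so the edgeR counts are not those of its rule. In the DESeq2 fit here Socs3 in tumor M-MDSC met both, at a log2 fold change of -1.18 with adjusted p = 0.000846. Members meeting both thresholds with DESeq2 were not counted.

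The test of the treatment effect between organs called 0 of 10 members in PMN-MDSC, against 3.50% of genes (at an unadjusted p under 0.05, 1 member and 1330 of 8047 genes; by DESeq2, 0 members and 501 genes). That member was Socs2, at 2.75 ± 0.94 (adjusted p = 0.131), a value that rests on the 1 count in treated spleen PMN-MDSC. The other members in PMN-MDSC had log2 differences of -0.0023 ± 0.26 (adjusted p = 0.998) for Ifnar1, -0.28 ± 0.24 (adjusted p = 0.621) for Ifnar2, -0.16 ± 0.35 (adjusted p = 0.889) for Ifngr1 and 0.32 ± 0.33 (adjusted p = 0.714) for Ifngr2, and of 0.10 ± 0.28 (adjusted p = 0.925) for Jak1, -0.38 ± 0.22 (adjusted p = 0.446) for Tyk2, 0.13 ± 0.47 (adjusted p = 0.941) for Socs1 and 0.22 ± 0.49 (adjusted p = 0.894) for Socs3. In M-MDSC, beside Jak2 and Socs3, the receptor chains had 0.03 ± 0.20 (adjusted p = 0.974) for Ifnar1, 0.41 ± 0.21 (adjusted p = 0.409) for Ifnar2, 0.27 ± 0.29 (adjusted p = 0.703) for Ifngr1 and 0.40 ± 0.21 (adjusted p = 0.421) for Ifngr2. Jak1 had -0.42 ± 0.19 (adjusted p = 0.345) with an unadjusted p of 0.0468, and the differences were -0.16 ± 0.39 (adjusted p = 0.891) for Tyk2, -1.27 ± 0.72 (adjusted p = 0.448) for Socs1 and -0.61 ± 0.57 (adjusted p = 0.663) for Socs2. None of these was called.

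Summed levels of marker genes of other cells also differed between treated and untreated libraries, in both organs. In spleen M-MDSC, where 3 members were called, the sums that did not overlap were those of 6 erythroid genes, at 23.96 to 47.8 CPM without and 0.606 to 2.69 CPM with treatment, of the 3 endothelial genes Pecam1, Cdh5 and Kdr, at 19.6 to 28.5 and 110.1 to 268 CPM, and of the macrophage genes, at 669 to 896 and 307 to 617 CPM, of which 3 of 7 were called as higher and 2 as lower. In tumor M-MDSC they were the endothelial sum, at 20.4 to 41.3 CPM without and 69.998 to 143 CPM with treatment, the epithelial sum, at 97.96 to 319.6 and 68.4 to 96.6 CPM, the dendritic cell sum, at 12.8 to 28.8 and 1.58 to 7.74 CPM, and the monocyte sum, at 3529.7 to 3917 and 2041 to 2841 CPM, while the macrophage sums overlapped at 3405 to 7946 and 4973 to 26359 CPM. In spleen PMN-MDSC they were the sums of erythroid genes, at 70.4 to 190.2 CPM without and 0.505 to 9.57 CPM with treatment, of macrophage genes, at 513 to 1500.2 and 96.4 to 245 CPM, of dendritic cell genes, at 28.6 to 81.6 and 0.870 to 5.33 CPM, of endothelial genes, at 29.8 to 73.8 and 13.04 to 24.3 CPM, and of T cell genes, at 14.9 to 20.3 and 2.02 to 5.92 CPM. In tumor PMN-MDSC it was the dendritic cell sum, at 15.2 to 25.2 CPM without and 0.976 to 12.9 CPM with treatment.

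Markers of the sorted cells themselves also moved, those of monocytes in both directions. Of 6 monocyte genes, 1 was called as higher and 3 as lower among the 4 tested in spleen PMN-MDSC, 2 as higher and 1 as lower in tumor PMN-MDSC, 2 as higher and 2 as lower in spleen M-MDSC and 0 in tumor M-MDSC. Their sums were 670.0 to 1239.7 CPM without and 1005 to 1861 CPM with treatment in spleen PMN-MDSC, 1599.9 to 2077 and 1201 to 1929.8 CPM in tumor PMN-MDSC and 2945 to 3839 and 2071 to 3452 CPM in spleen M-MDSC, with overlap in each. Ccr2, the chemokine receptor of classical monocytes, lay at 44.6 to 239.5 and 1.18 to 2.61 CPM without and with treatment in spleen PMN-MDSC, 319 to 443 and 11.95 to 78.1 CPM in tumor PMN-MDSC, 987 to 1289 and 77.2 to 269 CPM in spleen M-MDSC and 1074 to 1447 and 31.6 to 461 CPM in tumor M-MDSC. Ly6c2, a gene of the Ly6C antigen of the gate, lay in the same order at 44.1 to 118 and 793 to 1459.9 CPM, 1.91 to 10.9 and 68.1 to 278 CPM, 94.2 to 170.5 and 669 to 869.8 CPM, and 40.9 to 143 and 2.72 to 584 CPM. Ccr2 was thus lower and Ly6c2 higher in every treated library of the first 3 populations, and in tumor M-MDSC Ccr2 was lower in every treated library and Ly6c2 overlapped. Of 10 neutrophil genes 4 were called as higher and 0 as lower in spleen PMN-MDSC, where Socs1 was called, with sums of 25891 to 50204 CPM without and 49843 to 101031 CPM with treatment that overlapped. The neutrophil sum overlapped in tumor PMN-MDSC, at 1451 to 5063 CPM without and 4148 to 10906 CPM with treatment, and Ly6g, which encodes the marker of the PMN-MDSC gate, lay at 37.5 to 101 and 360.4 to 470.1 CPM in spleen PMN-MDSC. The part of these shifts in the receptor, kinase and SOCS results was not tested.

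Other genes of the pathway were taken from lists of known function. Of 12 IFN-stimulated genes, 12 rose in spleen PMN-MDSC, 12 in tumor PMN-MDSC, 12 in spleen M-MDSC and 8 in tumor M-MDSC, with median log2 fold changes of 3.20, 3.10, 3.62 and 2.60. Ifit1, an RNA-binding antiviral effector, rose by 4.36 ± 0.38 in spleen PMN-MDSC and by 4.26 ± 0.28 in spleen M-MDSC (adjusted p = 0.00126 and 2.4e-05). Irf7, the factor that amplifies interferon production, rose by 3.88 ± 0.26 in tumor PMN-MDSC and by 3.01 ± 0.28 in tumor M-MDSC (adjusted p = 9.6e-05 and 0.00216). Fold changes of the 7 receptor and kinase genes in the same 4 comparisons lay between -1.17 and 0.62 on the log2 scale.

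Downstream of the kinases, Stat2 was called as higher in 3 of the 4 populations, at 2.67 ± 0.40 (adjusted p = 0.00651) in spleen PMN-MDSC, 1.42 ± 0.23 (adjusted p = 0.00724) in tumor PMN-MDSC and 1.46 ± 0.23 (adjusted p = 0.0026) in spleen M-MDSC, and stood at 0.76 ± 0.25 (adjusted p = 0.132) in tumor M-MDSC. Irf9, its partner in the ISRE-binding complex, was called in tumor PMN-MDSC (1.08 ± 0.20, adjusted p = 0.0163). Stat5b in spleen M-MDSC (-0.42 ± 0.11, adjusted p = 0.0286) and Stat5a in tumor M-MDSC (-1.04 ± 0.22, adjusted p = 0.0412), which relay GM-CSF signals, were called as lower. Across this list of 8, the STAT genes with Irf9, 1 was called as higher in spleen PMN-MDSC and 2 in tumor PMN-MDSC. In spleen M-MDSC 2 of 7 tested were called as higher and 1 as lower, and in tumor M-MDSC 0 as higher and 1 as lower.

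Among 16 other brakes on JAK signaling, Usp18 stood apart in size. Its product binds IFNAR2 and keeps JAK1 from it, and it rose by 3.94 ± 0.32 (adjusted p = 0.00118) in spleen PMN-MDSC, 3.38 ± 0.44 (adjusted p = 0.00236) in tumor PMN-MDSC and 3.29 ± 0.26 (adjusted p = 4.7e-05) in spleen M-MDSC, and had 2.33 ± 0.53 (adjusted p = 0.0541) in tumor M-MDSC. It was the only gene of the list called in PMN-MDSC of spleen (1 of 14 tested) and of tumor (1 of 16). In spleen M-MDSC 6 of 16 were called, 1 higher and 5 lower, with Socs6 at -1.50 ± 0.18 (adjusted p = 5.5e-04) and Sh2b3, the adaptor LNK that restrains JAK2, at -0.52 ± 0.12 (adjusted p = 0.0164), whereas 0 of 15 were called in tumor M-MDSC. Socs6 was also the 1 gene of 16 on this list whose treatment effect differed between tumor and spleen M-MDSC (2.51 ± 0.50, adjusted p = 0.0383).

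Other receptors that use these kinases moved in both directions. Il2rg, the common gamma chain that pairs with JAK3, was called as higher in all 4 populations, from 1.01 ± 0.18 in tumor PMN-MDSC to 1.39 ± 0.34 in spleen PMN-MDSC (adjusted p = 0.0134 and 0.0332). Ifnlr1, the specific chain of the IFN-lambda receptor, rose in spleen PMN-MDSC (1.17 ± 0.21, adjusted p = 0.0132) and spleen M-MDSC (1.65 ± 0.24, adjusted p = 0.00147). In spleen M-MDSC it lay at 3.14 to 4.71 CPM without and 11.4 to 17.1 CPM with treatment. No untreated library there held more than 25 counts, so that Ifnlr1 passed the filter only through the treated ones. Il6st, which encodes gp130, the receptor that SOCS3 holds in check, fell in spleen PMN-MDSC (-3.68 ± 0.56, adjusted p = 0.00659), with 26.2 to 74.1 CPM without and 2.02 to 4.14 CPM with treatment, and its treatment effect differed between tumor and spleen PMN-MDSC (3.17 ± 0.57, adjusted p = 0.0106). Both values rest on treated spleen libraries with at most 7 counts each. In spleen Il6st passed the filter only through the untreated libraries. Across the list, 3 of 12 tested were called in spleen PMN-MDSC, 1 of 12 in tumor PMN-MDSC, 5 of 12 in spleen M-MDSC and 2 of 11 in tumor M-MDSC. Of 12 genes that IFN-gamma is known to induce, 5 of 11 tested rose and 1 fell in spleen PMN-MDSC, 2 rose and 1 fell in tumor PMN-MDSC, 7 rose and 1 fell in spleen M-MDSC, and 1 rose in tumor M-MDSC. The gene that fell was in each case Ciita, the master regulator of MHC class II, at -4.56 ± 0.67 (adjusted p = 0.00595), -2.79 ± 0.51 (adjusted p = 0.0188) and -3.19 ± 0.35 (adjusted p = 4.1e-04).

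Between organs of untreated mice, Socs3 was higher in tumor in both cell types, Jak1 was lower there in PMN-MDSC, and Jak2 was higher in tumor M-MDSC. Per the study's methods, tumors were minced and dissociated with a kit, whereas spleens were passed through a strainer. Organ and handling cannot be told apart in these comparisons. Tumor and spleen PMN-MDSC differed at 4 of 9 members tested, Socs2 included, against 59.1% of all genes, and M-MDSC at 5 of 8, against 28.4%. Socs3 in M-MDSC went from 111, 145, 67.4 and 63.1 CPM in spleen to 1689, 1551, 1548 and 1023 CPM in tumor (log2 fold change 3.93 ± 0.28 SE, adjusted p = 1.5e-06). Per length Socs3 ranked 79 of 9790 genes in untreated tumor M-MDSC and 1156 in untreated spleen M-MDSC. In PMN-MDSC spleen values of 261, 796, 367 and 371 CPM lay below tumor values of 991, 817, 1063 and 950.3 (log2 fold change 1.27 ± 0.30 SE, adjusted p = 0.00439).

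Socs2 was higher in tumor PMN-MDSC, with 35.8, 21.6, 24.6 and 23.4 CPM against 4.04, 1.44, 2.41 and 1.15 in spleen (log2 fold change 3.56 ± 0.39 SE, adjusted p = 4.1e-05). The 4 tumor libraries held 212 counts together and the 4 spleen libraries 25, so that Socs2 passed the filter on the mean count only through the tumor libraries; the fit without a filter also called it. It passed the filter in all but 1 of the alternatives, the one without tumor library 3. In M-MDSC Socs2 and in both cell types Socs1 were below the filter and were not tested; the Socs2 libraries had 4.37, 2.36, 1.35 and 1.69 CPM in spleen and 17.96, 13.8, 15.98 and 8.94 in tumor, without overlap. Cish, a relative of the SOCS genes induced through STAT5, was higher in tumor as well, at 2.24 ± 0.34 (adjusted p = 3.1e-04) in PMN-MDSC and 3.08 ± 0.35 (adjusted p = 5.7e-05) in M-MDSC.

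Jak1 fell between spleen and tumor in PMN-MDSC, from 885, 1440.3, 1027 and 1079 CPM to 376, 457, 475 and 516 (log2 fold change -1.11 ± 0.19 SE, adjusted p = 6.1e-04). No tumor library reached the lowest spleen library. Jak1 in M-MDSC had 304 to 370.0 CPM in spleen and 378 to 459 in tumor, without overlap, and was not called (log2 fold change 0.27 ± 0.12 SE, adjusted p = 0.127). Jak2 was higher in tumor M-MDSC (231 to 309.7 against 132 to 156 CPM; log2 fold change 0.92 ± 0.13 SE, adjusted p = 2.3e-04) and was not called in PMN-MDSC (log2 fold change 0.24 ± 0.20 SE, adjusted p = 0.315). Tyk2 was lower in tumor M-MDSC (log2 fold change -0.67 ± 0.20 SE, adjusted p = 0.026), a call lost without spleen library 1 or 2 or tumor library 3 (adjusted p = 0.0803, 0.0684 and 0.056), and stood at 0.36 ± 0.16 (adjusted p = 0.0698) in PMN-MDSC, called with scaling to library totals (adjusted p = 0.0434).

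Of the receptor chains, Ifngr2 was lower in tumor PMN-MDSC (110.3, 129, 146 and 120.1 CPM against 179, 392, 209 and 226; log2 fold change -0.82 ± 0.23 SE, adjusted p = 0.011). In M-MDSC Ifnar1 was higher in tumor (log2 fold change 0.60 ± 0.12 SE, adjusted p = 0.00356), a call lost with scaling to library totals (adjusted p = 0.054), and Ifngr1 was lower (log2 fold change -0.55 ± 0.17 SE, adjusted p = 0.0293), a call lost in the fit over all sorted groups (adjusted p = 0.0917) and without tumor library 1 or 2 or spleen library 3 or 4 (adjusted p from 0.0504 to 0.0864). Ifnar2 was called in neither cell type (0.05 ± 0.18, adjusted p = 0.832 and 0.08 ± 0.14, adjusted p = 0.701), nor were Ifnar1 and Ifngr1 in PMN-MDSC (0.14 ± 0.17, adjusted p = 0.507 and -0.20 ± 0.19, adjusted p = 0.371) or Ifngr2 in M-MDSC (-0.30 ± 0.13, adjusted p = 0.0986), the last of which was called with scaling to library totals (adjusted p = 0.00781).

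The cells from the 2 organs also differed in what other transcripts they held. The macrophage genes were higher in tumor, 7 of 7 in both cell types. The 10 neutrophil genes were lower in tumor PMN-MDSC, 10 of 10, with sums of 1451 to 5063 against 25891 to 50204 CPM, and 6 of 7 tested were lower and 1 higher in tumor M-MDSC, with sums of 240.0 to 764 against 3376 to 8424 CPM. The 5 epithelial genes summed to 123 to 737 CPM in tumor PMN-MDSC and 97.96 to 319.6 CPM in tumor M-MDSC. Their part in the differences between organs was not tested. Of 8 genes listed as SOCS3-linked targets of STAT3, a link not tested here, 5 were higher and 1 lower in tumor PMN-MDSC, where 59.1% of all genes were called. In tumor M-MDSC, where 28.4% were called, 7 of the 8 were higher and 0 lower. Tnfaip3, the ubiquitin-editing enzyme A20, stood there at 4.25 ± 0.24 (adjusted p = 2.1e-07) and Junb at 3.68 ± 0.22 (adjusted p = 3.3e-07).

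PMN-MDSC and M-MDSC of untreated spleen differed in all 3 kinase genes. Of 8 members tested 5 were called, against 64.4% of all genes. Jak1 was higher in PMN-MDSC (log2 fold change 1.47 ± 0.14 SE, adjusted p = 2.2e-05), as were Jak2 (log2 fold change 1.36 ± 0.15 SE, adjusted p = 6.6e-05) and Socs3 (log2 fold change 1.98 ± 0.35 SE, adjusted p = 9.2e-04). Tyk2 was lower, at 65.7, 53.9, 65.99 and 63.96 CPM in PMN-MDSC against 188, 185, 139 and 134 in M-MDSC (log2 fold change -1.55 ± 0.18 SE, adjusted p = 6.7e-05), and so was Ifngr1 (log2 fold change -1.19 ± 0.17 SE, adjusted p = 2.3e-04). Per length Jak1 exceeded Tyk2 by 12.8 to 25.4 times in spleen PMN-MDSC and by 1.74 to 2.56 times in spleen M-MDSC, with no overlap. Ifnar1, Ifnar2 and Ifngr2 were not called (0.24 ± 0.14, adjusted p = 0.149, -0.22 ± 0.17, adjusted p = 0.266 and 0.38 ± 0.18, adjusted p = 0.092). Scaling to library totals took the median log2 fold change of all genes in this comparison from -0.08 to -0.45, took that of Ifngr2 to just below 0 and called Ifnar2 as lower (-0.60 with adjusted p = 0.00864). In the fit over all sorted groups Ifngr2 was called (0.45 with adjusted p = 0.039), as it was without PMN-MDSC library 1 (0.50 with adjusted p = 0.0272).

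In untreated tumor Ifngr1, Jak2 and Socs3 set the 2 cell types apart. Of 9 members tested 3 were called, against 13.0% of all genes. Ifngr1 was again lower in PMN-MDSC (log2 fold change -0.77 ± 0.17 SE, adjusted p = 0.0103) and Jak2 again higher (log2 fold change 0.73 ± 0.18 SE, adjusted p = 0.016), the latter lost in the fit over all sorted groups (adjusted p = 0.0555) and without PMN-MDSC library 2 or 4 or M-MDSC library 2 (adjusted p from 0.0532 to 0.0556). Socs3 was lower in PMN-MDSC (log2 fold change -0.58 ± 0.18 SE, adjusted p = 0.0489), the reverse of its direction in spleen, but this call was lost in the fit over all sorted groups (adjusted p = 0.313) and without any 1 library other than M-MDSC library 4 (adjusted p from 0.061 to 0.144). Jak1 and Tyk2, which set the spleen populations apart, stood at 0.16 ± 0.15 (adjusted p = 0.516) and -0.47 ± 0.20 (adjusted p = 0.145), and Socs2 at 0.86 ± 0.27 (adjusted p = 0.0512), which DESeq2 called (adjusted p = 0.0314). Without M-MDSC library 4 Tyk2 was called as lower (-0.62 with adjusted p = 0.0101). Ifnar1, Ifnar2 and Ifngr2 had -0.16 ± 0.14 (adjusted p = 0.509), -0.19 ± 0.14 (adjusted p = 0.432) and -0.05 ± 0.15 (adjusted p = 0.876). The difference between the spleen and tumor contrasts was not tested. Of the 7 macrophage genes, 5 were called as higher in PMN-MDSC than in M-MDSC and 0 as lower, in spleen as in tumor. Their part in the differences between cell types was not tested.

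**Figure D4:**
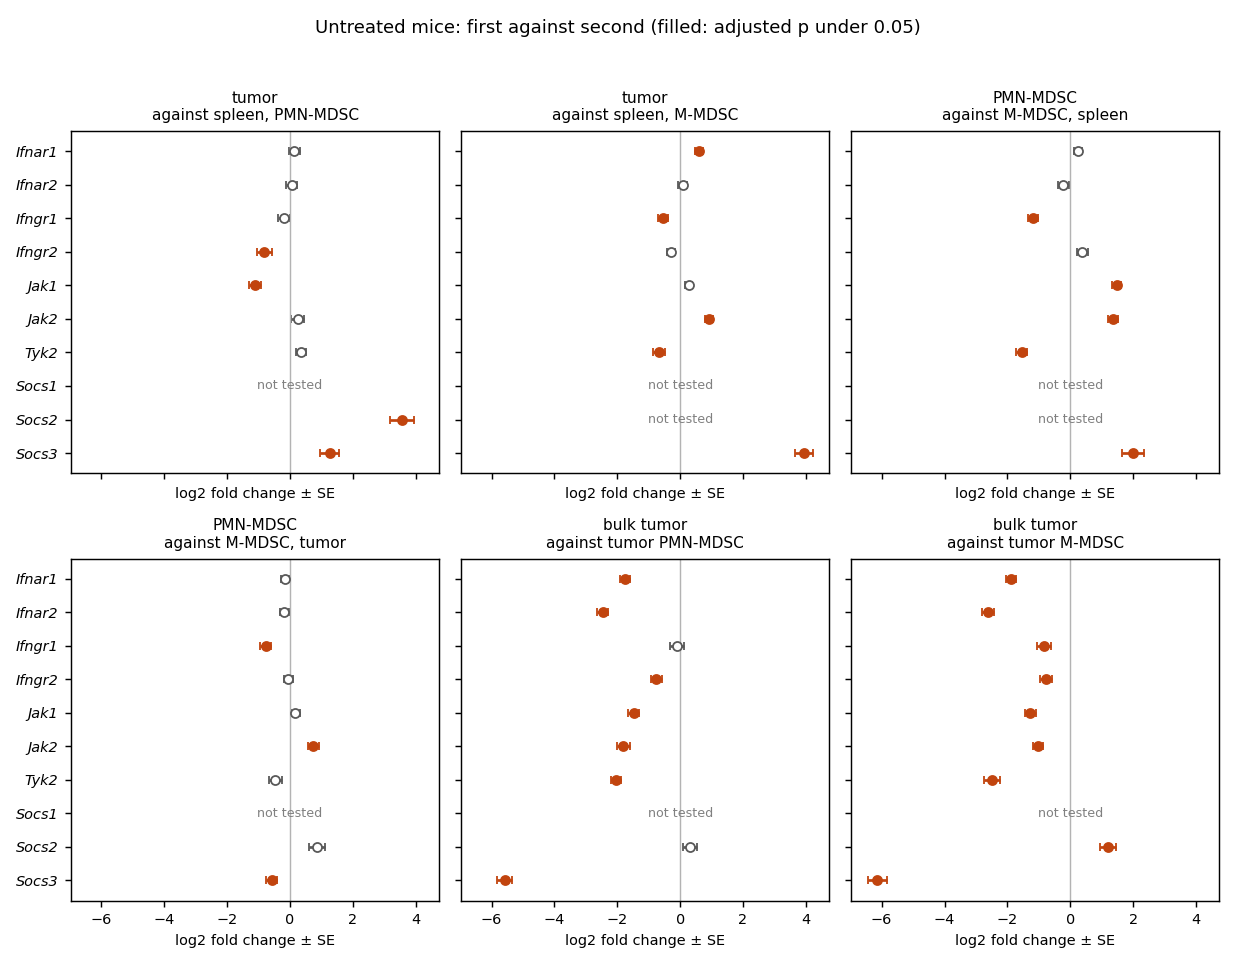
Log2 fold change (x axis, bars ± SE) of the 10 genes (y axis) in 6 comparisons of untreated libraries, the first group named against the second, with filled orange points for an adjusted p under 0.05. Socs3 runs from 3.93 higher in tumor M-MDSC than in spleen M-MDSC to -6.13 in bulk tumor against tumor M-MDSC, and Socs2 is the 1 member with a filled point above 0 against bulk tumor.

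Most members were lower in unsorted tumor than in the cells sorted from it. Against tumor PMN-MDSC 7 of 9 members tested were called, all lower in bulk tumor, where 69.7% of all genes were called, 32.8% as lower and 36.9% as higher. Against tumor M-MDSC 8 of 9 were lower and 1 was higher, where 69.2% of genes were called, 3420 of 11022 as lower and 4210 as higher. Socs3 showed the widest gap, with 22.3, 16.3, 29.5 and 22.3 CPM in bulk tumor (-5.58 ± 0.24 and -6.13 ± 0.30 on the log2 scale, adjusted p = 7.9e-09 and 2.6e-08). Ifnar2 had 15.2, 20.4, 19.9 and 23.97 CPM (-2.46 ± 0.18, adjusted p = 2.2e-07 and -2.61 ± 0.19, adjusted p = 3.6e-07) and Tyk2 18.97, 18.3, 18.4 and 23.4 CPM (-2.05 ± 0.16, adjusted p = 4.3e-07 and -2.49 ± 0.24, adjusted p = 3.6e-06). Ifnar1, Jak1 and Jak2 were lower by smaller margins, from -1.02 for Jak2 against tumor M-MDSC to -1.89 for Ifnar1 against tumor M-MDSC. In bulk tissue, fewer cells of a type and less RNA per cell cannot be told apart. The sorted cells also went through dissociation and sorting, whose part in these differences was not tested.

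Ifngr1 and Socs2 were the members not called between bulk tumor and tumor PMN-MDSC. Ifngr1 had 222, 419, 259 and 225 CPM, not called against tumor PMN-MDSC (-0.10 ± 0.22, adjusted p = 0.706) and lower than in tumor M-MDSC (-0.83 ± 0.23, adjusted p = 0.00638). Ifngr2 was lower in bulk tumor than in both (-0.76 ± 0.17, adjusted p = 0.00166 and -0.78 ± 0.19, adjusted p = 0.00301). Socs2 had 43.4, 28.6, 31.9 and 44.3 CPM, higher than in tumor M-MDSC (1.19 ± 0.26, adjusted p = 0.00163) and not called against tumor PMN-MDSC (0.31 ± 0.22, adjusted p = 0.23), except with library totals (0.58 with adjusted p = 0.042). Socs1 had 1.17, 2.32, 1.36 and 3.18 CPM and was below the filter in both comparisons. Bulk tumor carried the epithelial genes at 4405 to 6511 CPM and the macrophage genes at 802 to 1323 CPM.

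Ordered over all 9 groups, mean levels were highest for Ifnar1 in untreated tumor M-MDSC, for Ifnar2 and Ifngr2 in treated spleen PMN-MDSC, for Ifngr1 and Tyk2 in untreated spleen M-MDSC, for Jak1 in untreated spleen PMN-MDSC and for Jak2 in untreated tumor PMN-MDSC. Most neighbours in these orders overlapped. A gap between neighbouring groups was seen for Ifngr1 below its top group, for Jak1 between the spleen PMN-MDSC groups and the rest, for Socs2 between the tumor and spleen groups and above its lowest group, for Tyk2 above untreated spleen PMN-MDSC, and above bulk tumor for Ifnar1, Ifnar2, Ifngr2, Jak1, Tyk2 and Socs3.

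Finally, the genes whose log2(CPM + 1) ran most like that of each member over the 34 libraries were listed by Pearson's r among 9794 genes, as a description of shared differences between groups. Socs1 ran with Rsad2 (0.91), H2-T23 (0.89), Uba7 (0.89), of which Rsad2, the antiviral enzyme viperin, is on the list of IFN-stimulated genes above. Socs3 ran with Csrnp1 (0.97), Zc3h12a (0.95), Zfp36 (0.95), where Zc3h12a and Zfp36 encode proteins that destabilise inflammatory mRNAs. The likest genes were Kctd12 (0.93), Arhgap31 (0.92), Gna13 (0.92) for Ifnar1, Rnf130 (0.96), Fcer1g (0.96), Inpp5d (0.96) for Ifnar2, Foxn3 (0.80), Glud1 (0.80), Arhgap26 (0.75) for Ifngr1 and Rsrp1 (0.92), Eloa (0.91), Fuca1 (0.91) for Ifngr2. For the kinases they were Iqgap1 (0.98), Cmip (0.97), Foxo3 (0.97) for Jak1, Gabpb1 (0.89), Dusp16 (0.86), Ppp2r2d (0.85) for Jak2 and Camkk2 (0.92), Hpse (0.92), Plod3 (0.91) for Tyk2, and for Socs2 Rai14 (0.95), Psd3 (0.94), Slc5a3 (0.94). All libraries, bulk tumor included, entered these values, so a gene low in bulk tumor tends to share part of its pattern with any other such gene.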

How the data were processed

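The deposited table holds raw read counts per gene. Per the labels and the study's methods, the authors aligned the reads of a stranded total RNA kit (no molecular identifiers) to the mouse genome mm10 and to rRNA with ContextMap and BWA, and counted them per Gencode gene by strand with featureCounts (Subread 1.4.6-p3). The counts were tested here in edgeR 4.0.16 (R 4.3.3) with TMM scaling, genes averaging at least 25 counts over the libraries compared, the robust quasi-likelihood test and Benjamini-Hochberg adjusted p-values under 0.05. Of 35 libraries 34 were used, and the one with 10 counts was left out. Printed CPM share 1 set of factors while each fit recomputed its own, so that mean levels and fold changes differ in sign for Ifnar1 and Ifnar2 between organs in untreated PMN-MDSC, Tyk2 with treatment in tumor PMN-MDSC, and Ifngr1 in bulk tumor against tumor PMN-MDSC, none of them called. The alternatives were DESeq2 1.42.0, RLE scaling, no filter, 1 fit over the 8 sorted groups, the thresholds of the study's methods (set there for DESeq2) on the main edgeR fits, each library left out, and scaling to library totals, which was chosen after seeing the data.

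Groups follow the labels. The sample titles share numbers across organs and cell types, so that libraries of different populations can come from the same mice, and the tests between populations treat them as independent. Columns carry running numbers that do not name a mouse, so libraries were not paired, and p-values measure the spread between these libraries. Every member tested was named in every comparison, beside up to 3 genes with the smallest adjusted p of each pathway list, and as likest the 3 genes with the highest Pearson's r of log2(CPM + 1). Markers beside results were given by summed level. Some items of the series are not reported here. The members and lists were chosen with earlier results of these data known.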

Additional observations from a re-analysis of the deposited data

Results flagged for a closer look

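Of 70 groups of 4 libraries tested over the 10 genes, 6 held a library far from the other 3 by Dixon's criterion, where chance gives about 1 in 20. Untreated spleen M-MDSC library 3 had 85.02 CPM of Ifnar2 against 110.4 to 115 CPM in the others. Untreated tumor PMN-MDSC library 2 had 199 CPM of Ifngr1 against 275 to 289.97 CPM. Tyk2 stood at 53.9 CPM in untreated spleen PMN-MDSC library 2, against 63.96 to 65.99 CPM, and at 23.4 CPM in bulk tumor library 4, against 18.3 to 18.97 CPM. Socs1 stood at 9.03 CPM in untreated spleen M-MDSC library 2, against 2.82 to 3.497 CPM, and at 2.55 CPM in untreated tumor M-MDSC library 4, against 9.84 to 10.5 CPM. The last of these rests on 2 counts.

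Jak2 in M-MDSC was flagged because its response to treatment was not the same in the 2 organs: the log2 fold change in tumor minus that in spleen was -1.345, with adjusted p = 0.0243 in edgeR.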

How the results depend on the processing

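Counts of members called moved with the setting as follows. In spleen PMN-MDSC treatment called 1 member in the main analysis, 2 with DESeq2 and with 1 fit over all sorted groups, and 0 with library totals. In tumor PMN-MDSC 0 became 2 with DESeq2 and 1 without the filter. In spleen M-MDSC 3 became 4 with DESeq2 and 2 without the filter and with 1 fit. In tumor M-MDSC 0 became 3 with DESeq2, 3 without the filter and 2 with 1 fit. The difference between organs in M-MDSC went from 1 to 2 with DESeq2 and without the filter, and PMN-MDSC against M-MDSC in tumor from 3 to 1 with 1 fit and 4 with DESeq2. Applied to the edgeR fits, the study's thresholds left 0 members for treatment in spleen PMN-MDSC and in spleen M-MDSC, 0 for the difference between organs in M-MDSC, 2 and 1 between untreated organs in PMN-MDSC and M-MDSC, and 0 between cell types in tumor. Leaving out 1 library gave 0 to 1, 0 to 1, 1 to 3 and 0 to 2 members for treatment in spleen PMN-MDSC, tumor PMN-MDSC, spleen M-MDSC and tumor M-MDSC, 0 to 2 for the difference between organs in M-MDSC, and 1 to 4 between cell types in tumor. The log2 fold change of Ifngr2 between spleen cell types reversed to -0.004351 with library totals. Over the 53 member differences called or near a call in any setting, 38 of them called in the main analysis, 731 alternatives gave 641 results on the same side of the threshold in the same direction, 60 calls lost, 29 gained and 1 reversed. The causes were not tested.

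Counts over all genes moved too, with the study's thresholds again applied to the edgeR fits. Treatment called 844 genes in spleen PMN-MDSC (443 higher, 401 lower), 1354 with DESeq2, 1818 without the filter, 1663 with 1 fit, 3 at the study's thresholds and 307 (without treated library 3) to 1002 without 1 library; library totals gave 285 higher and 860 lower, with the median log2 fold change moving from 0.01 to -0.28. In tumor PMN-MDSC 279 became 613, 864 (no filter) and 20 (study's thresholds), and 110 (without untreated library 3) to 276 without 1 library. In spleen M-MDSC 1716 became 220 at the study's thresholds and 1088 without untreated library 4. In tumor M-MDSC 241 became 797, 1064, 768 with 1 fit and 1 at the study's thresholds, and without 1 library 30 (untreated library 3) to 531 (treated library 1). The difference between organs went from 282 to 501, 676, 561 with library totals and 0 at the study's thresholds in PMN-MDSC, and from 69 to 307, 659 and 1 in M-MDSC. Without 1 library these ran from 75 (spleen treated library 3) to 447 (spleen treated library 1) and from 7 (spleen treated library 3) to 250 (tumor treated library 1). Between untreated groups the study's thresholds took 4714 and 2357 (tumor against spleen), 5523 and 990 (cell types in spleen and tumor), and 7767 and 7630 (bulk tumor) to 1727, 714, 1993, 126, 4514 and 4617. Without the filter 2357 became 3662, 990 became 1658, and 7767 became 11698; 1 fit took 990 to 613, and leaving out PMN-MDSC library 2, 3 or 4 took it to 627, 631 and 607.

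No paired analysis was possible from the column names alone, because the columns of the count table carry no mouse number. Their running numbers follow the same order of groups as the numbered sample titles. A pairing of libraries by that order was not tested. Socs1 and Socs2 rest on few counts, which limits their precision.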
